A study of Mus musculus with 2 samples.

Results

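The receptors that hold cells to the matrix were examined in the mouse fracture callus at day 5 post-MTI, across populations of nuclei named from marker genes. They comprise 34 genes taken by symbol from the 32285 genes of the deposited counts, by a rule that used no measured value. Both genes and rule were, however, chosen with earlier results of these data known. The list holds the integrin α and β subunits of mouse, the collagen receptors Ddr1 and Ddr2, the hyaluronan receptor Cd44, the syndecans Sdc1 to Sdc4 and dystroglycan (Dag1). MTI stands for musculoskeletal traumatic injury, here a tibial fracture combined with injury of the neighbouring muscle, in C57BL6 mice. Nuclei of the hematoma or callus with the activated periosteum were sorted and sequenced as 1 library, made from the tibias of 3 or 4 mice. The series also holds 1 library of day 1 post-fracture, in which both the day and the injury differ, and the libraries were not compared. With 1 pooled library there were no replicates, so no test was run, and every interval given is a 95% interval that covers counting error only. Where a population held no UMI of a gene, the limit given is the level of 3 UMIs in it.

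Integrins are membrane receptors built from an α and a β subunit, and the pair decides which ligand is bound. Pairs with β1 bind collagens, laminins or fibronectin, pairs with αv bind ligands that carry the RGD sequence, including the latent form of TGF-β, and pairs with β2 are carried by leukocytes and bind ligands on other cells and complement fragments. Talin and kindlin switch the receptors on from inside the cell, and focal adhesion proteins tie them to actin. In bone, αvβ3 is known for the attachment of osteoclasts, and in muscle α7β1 and dystroglycan are known for anchoring fibres to laminin.

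The filters left 1127 nuclei with 4337337 UMIs (molecules counted by their identifiers) and a median of 2364 UMIs per nucleus. Clusters with defining markers gave 11 populations with 884 nuclei. They were macrophage-like (277 nuclei), neutrophil-like (88), osteoclast-like (31), erythroid-like (33), chondro-osteogenic-like (104), endothelial-like (36) and muscle fibre-like (100) nuclei, with 49 nuclei of mixed lymphoid and dendritic markers and 3 clusters called by their leading genes, namely a Ccr2- and Osm-led immune cluster (66), a Pgr-led skeletal cluster (74) and a Pax7-led myogenic-like cluster (26). The other 243 nuclei formed 2 unnamed clusters of low depth. In chondro-osteogenic-like nuclei the 12 chondro-osteogenic markers summed to 4210 CPM and the 5 markers of injury-induced fibrogenic cells to 7347 CPM. These sums were 1123 and 5927 CPM in the Pgr-led cluster. The name chondro-osteogenic-like therefore does not set cartilage and bone nuclei apart from fibrogenic ones. The study treated myogenic nuclei as contamination and removed them from its own analysis of this library, whereas they were kept here. Of the 884 nuclei, the neutrophil-like ones were the shallowest, with a median of 747.5 UMIs, against 7979.5 UMIs in the chondro-osteogenic-like ones. The 8 immune markers summed to 190 to 277 CPM in the skeletal, endothelial and myogenic populations, which should lack them. In the mixed lymphoid and dendritic nuclei the 8 endothelial markers summed to 744 CPM and the 12 chondro-osteogenic ones to 1162 CPM. The 6 B cell markers summed to 2677.5 CPM there. The part of endothelial and chondro-osteogenic nuclei or RNA in the receptor ratios of this population was not tested. The library shared 33 barcodes with the day 1 library, 29 of them among the retained nuclei and 14 of those in the muscle fibre-like population, and in 13 of the 14 the counts of both libraries correlated at 0.441 to 0.582 over genes on a log scale.

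For each gene, UMIs were summed over a population and divided by the total UMIs of that population (CPM, per 1000000 UMIs). The ratio of a gene is its CPM in a population over its CPM in all other retained nuclei, and a gene with at least 30 UMIs in all was called higher at a ratio of at least 2. In nuclei the counts include unspliced RNA, so that a level stands for nuclear RNA and not for protein on the surface.

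The 34 receptors held 13296 UMIs, or 0.307% of the total, and 30 of them had at least 30 UMIs. The other 4, Itga2b (15 UMIs), Itgad (15), Itgae (28) and Itgb4 (20), were not classed. All 30 were called higher in at least 1 of the 11 populations, against 77.1% of all 11385 genes with enough UMIs. There were 65 calls, 5 of them with an interval that reached below 1, and 8 receptors were called in exactly 1 population, 10 in 2 and 12 in 3 or more. Macrophage-like nuclei had 8 called receptors of 30 (26.7%), where 11.2% of all genes were called, and the Ccr2- and Osm-led immune cluster also had 8 (all genes 9.13%). Neutrophil-like nuclei had 6 (20%, all genes 13.5%), the mixed lymphoid and dendritic nuclei 7 (23.3%, all genes 13.6%) and osteoclast-like nuclei 6 (all genes 11.4%). Erythroid-like nuclei had 3 (10%, all genes 12.5%). Chondro-osteogenic-like nuclei had 6 (all genes 14.1%) and the Pgr-led skeletal cluster 4 (13.3%, all genes 11.9%), and both joined as skeletal lineage-like nuclei had 6 (all genes 14.6%). Endothelial-like nuclei had 6 (all genes 11.7%). The Pax7-led cluster had 7 (all genes 12.7%), muscle fibre-like nuclei 4 (all genes 10.9%), and both joined as myogenic-like nuclei 4 (all genes 11.5%).

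**Figure D1:**
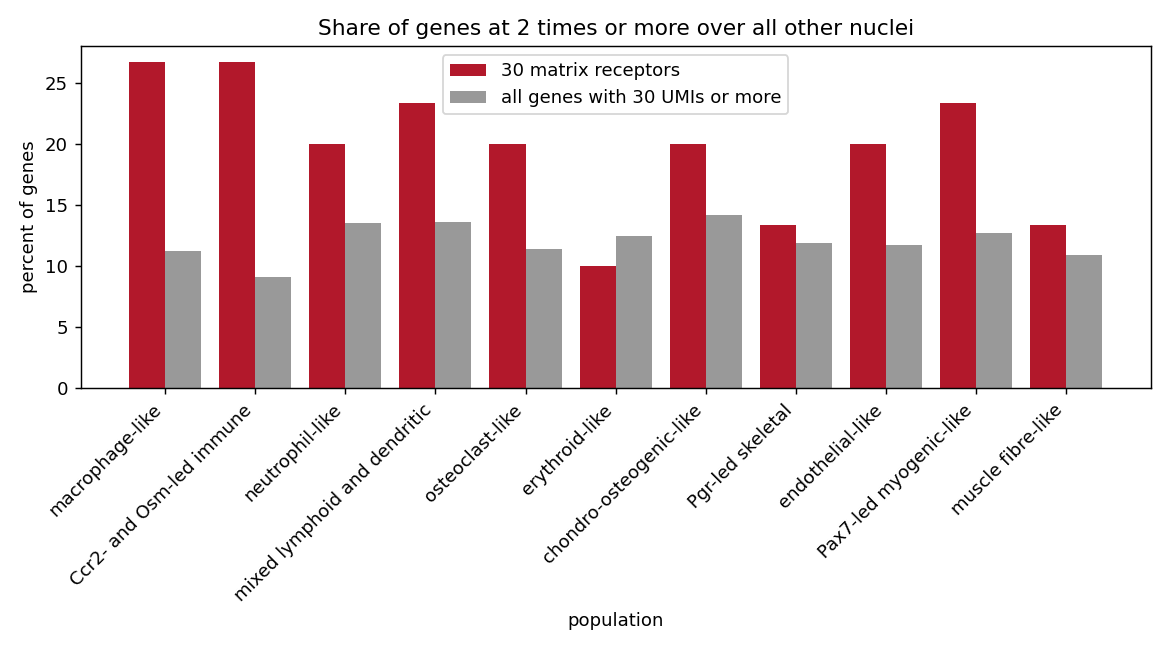
Percent of the 30 matrix receptors (red bars) and of all 11385 genes with enough UMIs (grey bars) whose CPM was at least 2 times that of all other nuclei, in each of 11 populations of 1 library. The share of receptors lay above that of all genes in 10 populations and below it in erythroid-like nuclei (10% against 12.5%). It was near that of all genes in the Pgr-led cluster (13.3% against 11.9%) and in muscle fibre-like nuclei (13.3% against 10.9%).

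The typical receptor was nonetheless lower in a given population than elsewhere, and so was the typical gene. The median ratio over the 30 receptors was 0.756 in macrophage-like nuclei, where the median over all genes was 0.889, and 0.141 in muscle fibre-like nuclei, where that over all genes was 0.676. In the Ccr2- and Osm-led cluster alone the receptor median, 0.778, lay above that of all genes, 0.719. In muscle fibre-like nuclei 22 of the 30 receptors were at a ratio of 0.5 or less, where 37.7% of all genes were, and in endothelial-like nuclei 18 were, where 32.1% of all genes were. Per kb of gene span, which unspliced RNA covers, the highest levels over all nuclei were those of the fibronectin receptor subunit Itga5 (6.62 CPM per kb), Itgb1 (6.05), Cd44 (5.19) and Itgav (4.87). Of the 30, Itga8 had the lowest, at 0.0933 CPM per kb. Without division by span the order differed, with Cd44 (470 CPM), Itgav (402 CPM) and Itgb1 (287.5 CPM) highest and Itga5 at 149 CPM.

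**Figure D2:**
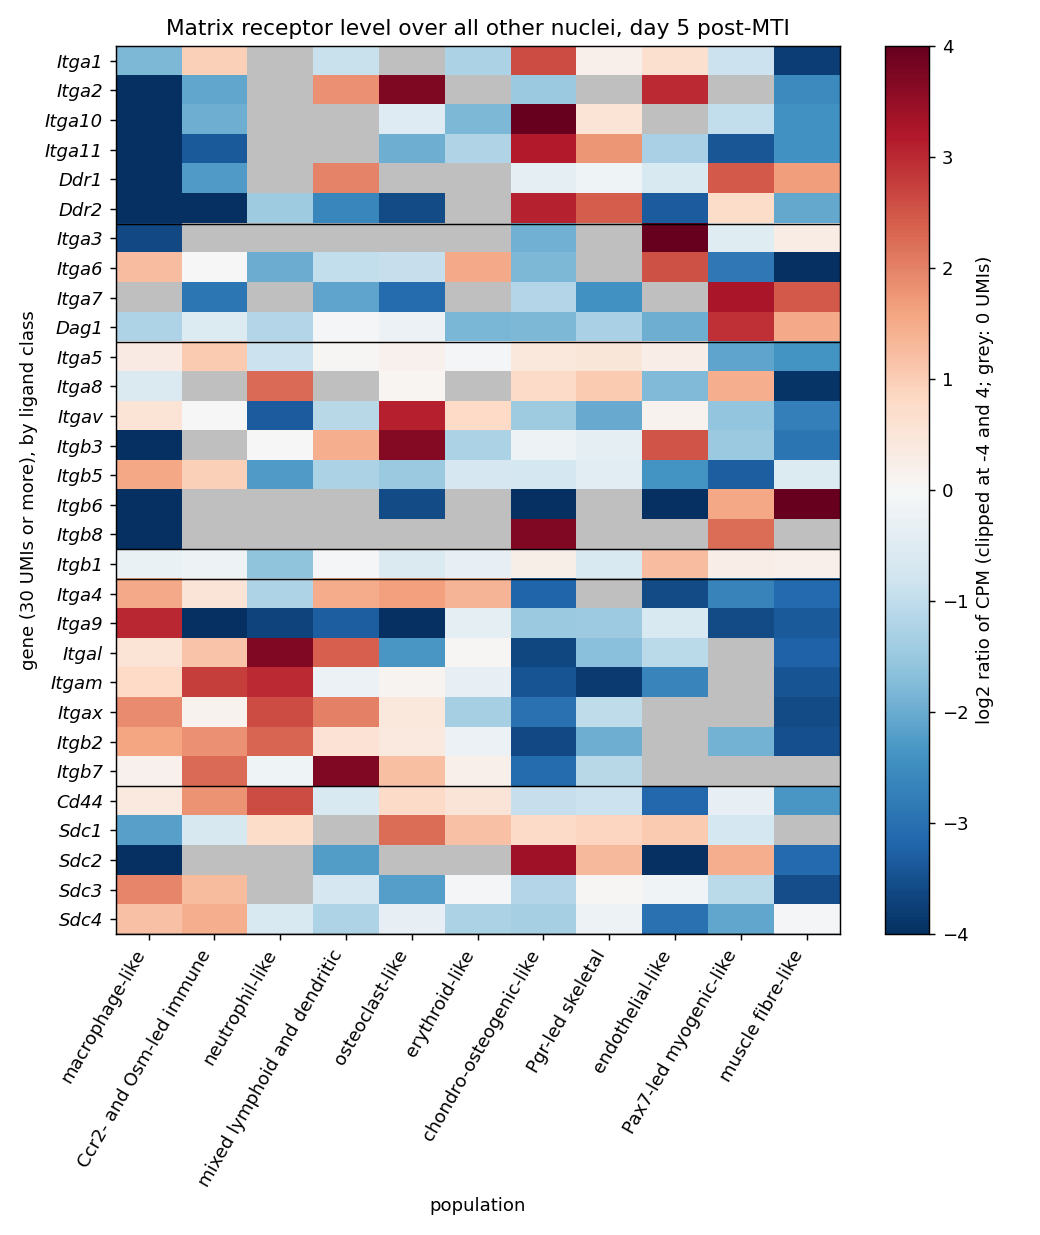
Ratio of each of the 30 receptors with enough UMIs in each population over all other retained nuclei, on a log2 colour scale with 0 UMIs in grey. Examples of high receptors are Itga10, Itga11, Ddr2 and Sdc2 in chondro-osteogenic-like nuclei and Itgav, Itgb3 and Itga2 in osteoclast-like nuclei.

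The collagen receptors were split between the skeletal populations and others. Integrins α1, α2, α10 and α11 pair with β1 and bind collagens, and Ddr1 and Ddr2 are receptor tyrosine kinases that collagen activates. Itga10, the collagen II receptor subunit of cartilage, reached 79.6 CPM (62.2 to 100; 71 UMIs) in chondro-osteogenic-like nuclei, a ratio of 17.1 (9.86 to 31.6). Its next level was 29.2 CPM from 4 UMIs in the Pgr-led cluster. Itga10 was uneven within the population, with UMIs in 21 of 104 nuclei and 25.4% of them in 1 nucleus. Itga11, a fibrillar collagen receptor of mesenchymal cells, was at 182 CPM (155 to 212) in chondro-osteogenic-like nuclei and at 168 CPM in the Pgr-led cluster, with ratios of 9.07 (6.80 to 12.2) and 3.39 (2.10 to 5.22), and these levels differed by less than their counting error. Ddr2 was highest in the Pgr-led cluster at 510 CPM, 1.42 times (1.08 to 1.84) its 360 CPM in chondro-osteogenic-like nuclei, where 79 of 104 nuclei held it. Across all skeletal lineage-like nuclei Ddr2 was at 380 CPM and 95.1 times (40.4 to 295) the macrophage level.

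The promoters of the 2 α subunits with the largest ratios in chondro-osteogenic-like nuclei are shown because both genes were raised in the same nuclei. The sequences are those of RefSeq on GRCm38.p6, from 120 bases before the start to the base before it, for Itga10 at chr3:96645464-96645583 and for Itga11 at chr9:62677735-62677854. Capitals mark matches to 4 words searched on both strands. They were GAGGAA, which contains the GGAA core of ETS family sites, GGGCGG, the GC box, TATAAA, the TATA box, and CAGCTG, an E-box. The shorter GGAA was not searched by itself.
Itga10: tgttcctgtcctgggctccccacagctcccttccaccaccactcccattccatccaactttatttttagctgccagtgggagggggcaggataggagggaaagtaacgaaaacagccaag
Itga11: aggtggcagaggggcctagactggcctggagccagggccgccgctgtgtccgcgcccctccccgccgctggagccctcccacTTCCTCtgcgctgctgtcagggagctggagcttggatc
The Itga10 window held none of the 4 words, and that of Itga11 held GAGGAA once, read on the opposite strand. Over 32851 promoter windows of this length, 11.6% held GAGGAA, 26.5% GGGCGG, 6.34% TATAAA and 6.76% CAGCTG. Of the 34 receptors, 25 had a promoter entry, and 7, 10, 0 and 2 of these held the words in the same order. A receptor was counted where any of its windows held the word, whereas the percentages are of single windows, so the 2 are not on the same unit.

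Itga1, which binds collagen IV and other collagens, was at 248 CPM (216 to 283) in chondro-osteogenic-like nuclei, a ratio of 6.14 (4.94 to 7.65). Its annotated span overlaps Pelo on the same strand, so that reads of these genes may be counted to either. Levels of 155 CPM in the Ccr2- and Osm-led cluster and 127 CPM in endothelial-like nuclei followed. At doubled clustering resolutions, a cluster of 69 nuclei was named pericyte and smooth muscle-like, 11 of them from the chondro-osteogenic-like population, 41 from the Pgr-led cluster and 17 from an unnamed cluster. Itga1 was at 814 CPM (663 to 990) in these 69 nuclei, a ratio of 13.2, beside 80.6 CPM of Itga8 (ratio 4.92) and 105 CPM of Itga7 (ratio 2.89). Most of the 101 Itga1 UMIs lay in the 11 chondro-osteogenic-like nuclei, so this level is not a trait of all 69. Without the 69 nuclei, Itga1 went from 221 to 128 UMIs in chondro-osteogenic-like nuclei and from 13 to 5 in the Pgr-led cluster. Itga7 went from 17 to 7 UMIs in chondro-osteogenic-like nuclei. With the 69 nuclei left out, Itga1 in chondro-osteogenic-like nuclei fell to 154 CPM and a ratio of 3.96, while Itga10, Itga11 and Ddr2 stayed at ratios of 20.3, 10.2 and 9.5. The Pgr-led cluster then kept 33 nuclei, with Ddr2 at 580 CPM (ratio 6.40) and Itga1 at 54.8 CPM (ratio 0.889).

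Itga2, whose product binds collagen I, stood highest outside the skeletal populations. Osteoclast-like nuclei held 181 CPM (128.1 to 248.5; 38 UMIs in 11 of 31 nuclei), a ratio of 13.3 (8.60 to 20.5), and endothelial-like nuclei 133 CPM, a ratio of 7.87 (4.73 to 12.7), and these 2 levels had overlapping intervals. Itga2 was also called in the mixed lymphoid and dendritic nuclei, at 72.6 CPM from 8 UMIs in 3 of 49 nuclei. Chondro-osteogenic-like nuclei held 8.97 CPM, and the Pgr-led cluster held none, which allows up to 21.9 CPM (3 UMIs). Ddr1, the collagen receptor kinase of epithelia and other cells, was at 113 CPM in the Pax7-led cluster (ratio 5.51, 3.28 to 8.89), 90.8 CPM in the mixed lymphoid and dendritic nuclei (ratio 3.96, 10 UMIs) and 58.4 CPM in muscle fibre-like nuclei (ratio 3.21). Its skeletal levels were 20.2 and 21.9 CPM, so the kinases Ddr1 and Ddr2 stood highest in different populations.

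The laminin receptors divided between endothelial and myogenic populations. Integrins α3, α6 and α7 pair with β1 to bind laminins, α6 also pairs with β4, and dystroglycan links laminin to the dystrophin complex of muscle. Itga6 was highest in endothelial-like nuclei at 519 CPM (420 to 635; 25 of 36 nuclei), a ratio of 5.85 (4.61 to 7.35) and 16.7 times (11.1 to 25.8) the level of skeletal lineage-like nuclei. Its levels in erythroid-like (283 CPM, ratio 2.85) and macrophage-like nuclei (181 CPM, ratio 2.35) were also called. The Itga6 span overlaps Gm13662 and Gm13663 on the same strand. Itga3 gave the largest ratio of endothelial-like nuclei, 21.5 (9.91 to 46.5), from 15 UMIs in 7 nuclei, and 1 nucleus held 46.7% of them. Itgb4, at 27.6 CPM from 5 UMIs there, was too low to be classed.

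Itga7 and Dag1 were myogenic. Itga7 was at 267 CPM (200 to 350; 17 of 26 nuclei) in the Pax7-led cluster and 121 CPM (96.6 to 150; 40 of 100 nuclei) in muscle fibre-like nuclei, ratios of 9.71 and 5.43. Dag1 was at 724 CPM and 270 CPM in the same populations, ratios of 7.64 (6.25 to 9.28) and 2.86 (2.38 to 3.42). Pax7 is the defining gene of muscle stem cells, and per UMI its cluster held 2.21 times (1.53 to 3.15) the Itga7 and 2.68 times (2.14 to 3.35) the Dag1 of the fibre-like nuclei. In the other 9 populations Itga7 lay between 0 and 19.1 CPM, and macrophage-like nuclei held no UMI of it, which allows up to 2.40 CPM. Titin (Ttn), a fibre gene, was at 36575 CPM in the fibre-like nuclei, 5456 CPM in the Pax7-led cluster and 1122 CPM in neutrophil-like nuclei.

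Among the receptors that bind RGD ligands and latent TGF-β, the αv partners β3, β5, β6 and β8 each had another population with the highest level. For β3, β5 and β8, however, the intervals of the highest and the next level overlapped. Itgav, the shared α subunit, was at 2535 CPM (2324 to 2760) in osteoclast-like nuclei, a ratio of 8.63 (7.78 to 9.57). The next levels were 673 CPM in erythroid-like and 515 CPM in macrophage-like nuclei, and osteoclast-like nuclei held 4.92 times (4.38 to 5.53) the macrophage level. With each nucleus thinned to 500 UMIs, 61.3% of osteoclast-like nuclei held an Itgav UMI (90.3% unthinned), against 19.1% of macrophage-like nuclei (63.9% unthinned) and 2.00% of muscle fibre-like nuclei (30% unthinned). The median depth was 7188 UMIs in osteoclast-like and 5529.5 UMIs in muscle fibre-like nuclei. The difference held at equal depth, although 1 osteoclast-like nucleus held 18.4% of the Itgav UMIs of its population.

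Itgb3 was also highest in osteoclast-like nuclei, at 224 CPM (165 to 298; 17 of 31 nuclei) and a ratio of 12.7 (8.58 to 18.5). Macrophage-like nuclei had 2 Itgb3 UMIs in 277 nuclei, and the osteoclast level was 140 times theirs (36.7 to 1191). Endothelial-like nuclei held 133 CPM of Itgb3, a ratio of 5.74 (3.51 to 9.05). Itgb3 was also called in the mixed lymphoid and dendritic nuclei, at 72.6 CPM from 8 UMIs in 6 of 49 nuclei. Itgb5, a vitronectin receptor subunit, had the opposite order and was at 366 CPM (ratio 2.92, 2.55 to 3.36) in macrophage-like nuclei and at 71.5 CPM in osteoclast-like nuclei, 5.12 times (3.07 to 9.22) apart. The Ccr2- and Osm-led cluster held 364 CPM of Itgb5, a ratio of 1.95. In muscle Itgb5 was on the fibre side, at 139 CPM against 20.6 CPM in the Pax7-led cluster, a ratio between them of 6.79 (2.57 to 25.4).

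Itgb6, whose product with αv binds and activates latent TGF-β and is best known from epithelia, was highest in the myogenic populations. Muscle fibre-like nuclei held 574 CPM (519 to 632; 403 UMIs in 59 of 100 nuclei) and the Pax7-led cluster 298 CPM (58 UMIs in 9 of 26 nuclei), with ratios of 28.6 (22.2 to 37.2) and 2.95 (2.20 to 3.89). No more than 9.53 CPM was seen in any of the other 9 populations. Both myogenic populations together were at 514 CPM against 4.36 CPM in all other nuclei, a ratio of 118 (70.7 to 212), which was 37.8 with each nucleus assigned by its own marker score and 30.1 with every nucleus weighted alike. In fibre-like nuclei with the gene the median was 5 UMIs and the highest 28, and 1 nucleus of the Pax7-led cluster held 32.8% of that cluster's Itgb6. After thinning, 16.0% of fibre-like and 7.69% of Pax7-led nuclei held a UMI (59.0% and 34.6% unthinned) and 0% of every other population. Detection fell with depth, so these shares do not give the share of nuclei that express the gene. Unthinned, 1 of 277 macrophage-like nuclei held a UMI. Without the barcodes found in both libraries, 86 fibre-like nuclei were left and Itgb6 was at 585 CPM and a ratio of 29.2. Itgb6 spans chr2:60598292-60722643 on the minus strand of GRCm38.

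**Figure D3:**
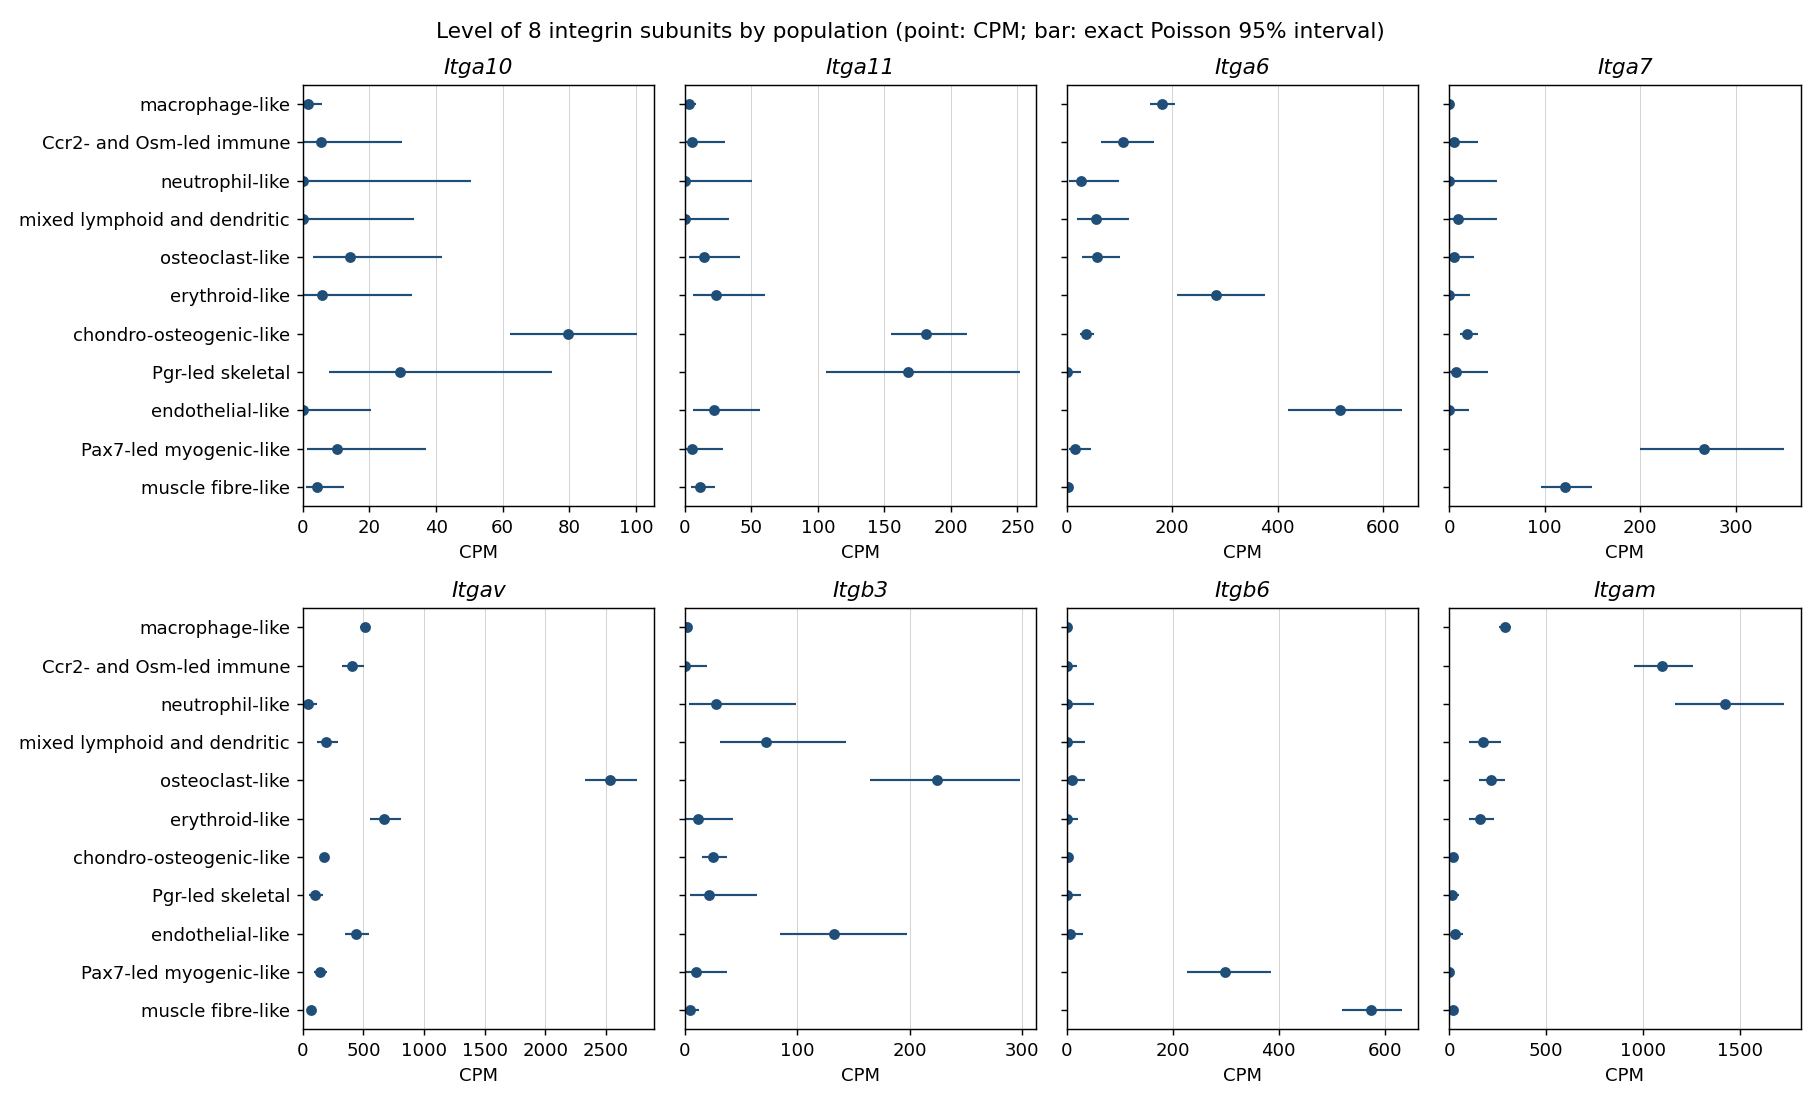
CPM of 8 integrin subunits in each of 11 populations, with points for the summed level and bars for the exact Poisson 95% interval. Itgav and Itgb3 peak in osteoclast-like nuclei at 2535 and 224 CPM, Itgb6 in muscle fibre-like nuclei at 574 CPM, and Itgam in neutrophil-like nuclei at 1423 CPM.

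Itgb8, the other β subunit known for activating latent TGF-β, was at 57.2 CPM (51 UMIs) in chondro-osteogenic-like nuclei and 61.7 CPM (12 UMIs) in the Pax7-led cluster, ratios of 13.1 (7.27 to 25.1) and 4.73 (2.30 to 8.95). It had no UMI in muscle fibre-like nuclei, which allows up to 4.27 CPM, nor in 7 other populations. In chondro-osteogenic-like nuclei 1 nucleus of the 19 with Itgb8 held 31.4% of its UMIs. Itga5, the fibronectin receptor α subunit, ran from 142 to 294 CPM in 8 populations, with 82.1 CPM in neutrophil-like nuclei and 32.7 and 36.0 CPM in the myogenic ones. Its single call was in the Ccr2- and Osm-led cluster, at 294 CPM and a ratio of 2.07 (1.54 to 2.73). Itga8, a nephronectin receptor subunit of mesenchymal cells, was low throughout, and its calls in neutrophil-like nuclei (6 UMIs, ratio 4.79), the Pax7-led cluster (9 UMIs, ratio 2.74) and the Pgr-led cluster (5 UMIs, ratio 2.07, 0.653 to 5.05) rest on few molecules. Itga2b, the platelet subunit, had 0 to 3 UMIs in each population.

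Itgb1, the β subunit that many α subunits share, was present in all 11 populations. Its ratio was 2.33 (1.91 to 2.83) in endothelial-like nuclei, where it reached 635 CPM, and 0.329 to 1.21 in the other 10 populations. The neutrophil-like nuclei held the least, 95.8 CPM from 7 UMIs. Skeletal lineage-like nuclei held 1.22 times (1.04 to 1.43) the macrophage level.

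The subunits of the leukocyte integrins were called in immune populations, and Itgal, Itgam, Itgax and Itgb2 all had their highest level in neutrophil-like nuclei. For each of them the interval of this level overlapped that of the next. The β2 subunit Itgb2 was at 260 CPM in neutrophil-like nuclei (19 UMIs), 177 CPM in the Ccr2- and Osm-led cluster and 105 CPM in macrophage-like nuclei, ratios of 4.99 (2.95 to 7.98), 3.53 (2.36 to 5.11) and 2.98 (2.30 to 3.88). With every nucleus weighted alike the macrophage ratio was 1.57. In the skeletal, endothelial and myogenic populations it lay between 0 and 15.4 CPM. Itgam (CD11b), which with β2 binds complement fragments and ICAM-1, was at 1423 CPM (1162 to 1724; 54 of 88 nuclei) in neutrophil-like nuclei and 1098 CPM (952 to 1259; 46 of 66 nuclei) in the Ccr2- and Osm-led cluster, with ratios of 7.92 (6.39 to 9.73) and 6.85 (5.83 to 8.02). The intervals of these 2 levels overlapped. Macrophage-like nuclei held 288 CPM, and the neutrophil-like level was 4.93 times (3.93 to 6.15) as high. At 500 UMIs per nucleus, 52.3% of neutrophil-like nuclei held Itgam (61.4% unthinned), 31.8% of the Ccr2- and Osm-led cluster (69.7% unthinned), 9.39% of macrophage-like nuclei (56.7% unthinned) and 1.00% of muscle fibre-like nuclei (10.0% unthinned). The S100a9 level was 2585 CPM in neutrophil-like nuclei, and the 12 myogenic markers summed to 1642 CPM there. The 22 skeletal lineage markers summed to 1258.5 CPM and the 7 NK/T cell markers to 301 CPM in the same nuclei. The part of the myogenic, skeletal and NK/T nuclei or RNA in the receptor ratios of neutrophil-like nuclei was not tested. In the simulated nuclei described under processing, 34.1% of the neutrophil ones were given back their class.

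Itgal (CD11a), the α subunit of LFA-1, was at 246 CPM (146 to 389; 18 UMIs) in neutrophil-like nuclei and 109 CPM (12 UMIs) in the mixed lymphoid and dendritic nuclei, ratios of 13 (7.32 to 21.8) and 5.29 (2.63 to 9.72). Its ratio of 2.22 in the Ccr2- and Osm-led cluster had an interval of 0.984 to 4.41. Itgax (CD11c), known from dendritic cells and some macrophages, was at 82.1 CPM from 6 UMIs in neutrophil-like, 54.5 CPM from 6 UMIs in mixed lymphoid and dendritic, and 30.4 CPM from 38 UMIs in macrophage-like nuclei, ratios of 6.14, 4.04 and 3.75 (2.20 to 6.48). These levels had overlapping intervals. The macrophage value depended on how nuclei were assigned, since with each nucleus assigned by its own marker score it was 0.998, and with every nucleus weighted alike 1.48. Itgad had 0 to 5 UMIs in each of the 11 populations, and Itgae, the subunit that binds E-cadherin with β7, had 0 to 6.

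Itgal, Itgam, Itgax and Itgad all lie on chromosome 7, and Itgam and Itgax are neighbours that were both called in neutrophil-like nuclei. Their RefSeq promoter windows (GRCm38.p6, 120 bases before the start, plus strand), at chr7:128062520-128062639 for Itgam and chr7:128129430-128129549 for Itgax, are shown side by side with the same 4 words in capitals.
Itgam: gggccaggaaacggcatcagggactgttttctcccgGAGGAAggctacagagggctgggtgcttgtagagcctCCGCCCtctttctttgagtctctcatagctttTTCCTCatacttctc
Itgax: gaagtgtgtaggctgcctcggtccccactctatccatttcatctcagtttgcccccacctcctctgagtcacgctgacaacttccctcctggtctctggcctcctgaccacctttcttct
The Itgam window held 3 matches, GAGGAA on each strand and 1 GC box on the opposite strand, and the Itgax window held none of the 4 words.

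Itga4 and Itga9 form the α4 and α9 branch, which binds VCAM-1, fibronectin splice forms, tenascin-C and osteopontin. Itga4 was called in 4 populations, at 357 CPM in osteoclast-like, 336 CPM in mixed lymphoid and dendritic, 307 CPM in erythroid-like and 236 CPM in macrophage-like nuclei, ratios of 3.11, 2.77, 2.57 and 2.88. It was not called in the Ccr2- and Osm-led cluster (177 CPM) or in neutrophil-like nuclei (54.7 CPM from 4 UMIs). The intervals of neighbours in this order overlapped, and 1 erythroid-like nucleus held 42.3% of that population's Itga4. The macrophage markers summed to 2491 CPM in erythroid-like nuclei, against 5061 CPM in macrophage-like nuclei. The 4 markers of cycling cells summed to 2473 CPM in erythroid-like nuclei, against 11.4 to 685 CPM in the other 10 populations, and the 8 erythroid markers to 809 CPM. The part of the macrophage and cycling markers in the receptor levels of erythroid-like nuclei was not tested. Itgb7, the partner of α4 on lymphocytes, was at 154 CPM (17 UMIs in 14 of 49 nuclei) in the mixed lymphoid and dendritic nuclei, a ratio of 13 (7.05 to 23.0), and at 64.2 CPM in the Ccr2- and Osm-led cluster, a ratio of 4.85. Its ratio in osteoclast-like nuclei was 2.29 from 7 UMIs (0.885 to 5.02).

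Itga9 had its highest level in macrophage-like nuclei, 466 CPM (429 to 505; 583 UMIs in 163 of 277 nuclei), a ratio of 8.03 (6.78 to 9.54). The next level was 136 CPM in erythroid-like nuclei. The other myeloid populations held little Itga9, with 2 UMIs in the Ccr2- and Osm-led cluster, 1 in neutrophil-like and 1 in osteoclast-like nuclei. The macrophage markers summed to 4064 CPM in the Ccr2- and Osm-led cluster, against 5061 CPM in macrophage-like nuclei. A sum does not show whether the same markers were raised in that cluster as in macrophage-like nuclei. Whether Itga9 divides nuclei with macrophage markers from those without was therefore not tested. The ratio of macrophage-like to osteoclast-like nuclei was 97.7, with a wide interval (17.5 to 3867) since the latter had 1 UMI. With nuclei of 0.5% or more mitochondrial UMIs removed, the macrophage ratio of Itga9 was 1.75, and those of Itga4 (1.61), Itga6 (1.67) and Itgb5 (1.83) also lay below 2.

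Cd44 and the syndecans are the receptors of the list outside the integrin family. Cd44 was highest in neutrophil-like nuclei at 2627 CPM, a ratio of 6.07 (5.20 to 7.04), and in the Ccr2- and Osm-led cluster at 1478 CPM, a ratio of 3.48 (3.05 to 3.95). It was detected in every population, with the lowest levels in endothelial-like (55.2 CPM) and muscle fibre-like nuclei (107 CPM). Neutrophil-like nuclei held 4.64 times (3.93 to 5.45) the macrophage level. Sdc2, the syndecan of mesenchymal cells, was at 299 CPM in chondro-osteogenic-like nuclei, 216 CPM in the Pax7-led cluster and 197 CPM in the Pgr-led cluster, ratios of 10.5 (8.32 to 13.4), 2.77 and 2.45. Between the myogenic populations it was 19.0 times (8.79 to 46.7) as high in the Pax7-led cluster. Sdc3 and Sdc4 were instead called in macrophage-like nuclei (90.3 and 68.7 CPM, ratios of 3.87 and 2.23) and in the Ccr2- and Osm-led cluster (96.4 and 107 CPM, ratios of 2.40 and 2.76). Sdc1, with 36 UMIs in all, was called in osteoclast-like (7 UMIs, ratio 4.75), erythroid-like (3 UMIs) and endothelial-like nuclei (3 UMIs), and the last 2 ratios had intervals of 0.439 to 7.13 and 0.410 to 6.65.

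Of 24 known αβ pairs, 20 had both subunits among the 30 receptors. A pair was said to mark a population where both of its subunits were called there. In osteoclast-like nuclei these were Itgav with Itgb3 and Itga4 with Itgb7, and both Itgav and Itgb3 had UMIs in 16 of 31 nuclei (51.6%, 33.1% to 69.8%), against 23 of 1096 other nuclei (2.10%). In endothelial-like nuclei they were Itga2, Itga3 and Itga6 with Itgb1, and Itga6 and Itgb1 were both detected in 20 of 36 nuclei (55.6%). In neutrophil-like nuclei they were Itgal, Itgam and Itgax with Itgb2. There Itgb2 had UMIs in 17 of 88 nuclei and Itgax in 4, so that few nuclei can hold both. The Ccr2- and Osm-led cluster shared the pairs of Itgam and Itgal with Itgb2, the former detected in 20 of 66 nuclei (30.3%), and macrophage-like nuclei had Itgax with Itgb2, both detected in 9 of 277 nuclei (3.25%). This last pair was lost by own marker score (Itgax 0.998) and with every nucleus weighted alike (Itgax 1.48, Itgb2 1.57), and 27 of its 38 Itgax UMIs lay in a cluster of 36 nuclei. The mixed lymphoid and dendritic nuclei had Itga4 with Itgb7. Intervals of the Itgal ratio in the Ccr2- and Osm-led cluster and of the Itgb7 ratio in osteoclast-like nuclei reached below 1. Co-detection rises with depth, and the median depth of these populations ran from 747.5 to 7188 UMIs.

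No pair was called in both subunits in the skeletal, myogenic or erythroid-like populations. Their raised α subunits Itga1, Itga10, Itga11 and Itga7 all pair with Itgb1, whose ratio was 1.18 in chondro-osteogenic-like, 0.652 in Pgr-led, 1.21 in Pax7-led and 1.15 in muscle fibre-like nuclei. Itgb1 was nonetheless present beside them, since Itga11 and Itgb1 were both detected in 43 of 104 chondro-osteogenic-like nuclei (41.3%) against 24 of 1023 others (2.35%). Singly, Itga11 was detected in 51.9% and Itgb1 in 75% of the 104 nuclei, and depth differed between populations. The contrast therefore does not show that the 2 subunits pair. Itga7 and Itgb1 were both detected in 13 of 26 Pax7-led nuclei and in 32 of 100 fibre-like nuclei. The raised β subunits Itgb6 and Itgb8 pair with Itgav, whose ratio was 0.150 in muscle fibre-like and 0.371 in chondro-osteogenic-like nuclei. Itgav and Itgb6 were both detected in 22 of 100 fibre-like nuclei, against 13 of 1027 others (1.27%), and Itgav and Itgb8 in 10 of 104 chondro-osteogenic-like nuclei (9.62%).

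**Figure D4:**
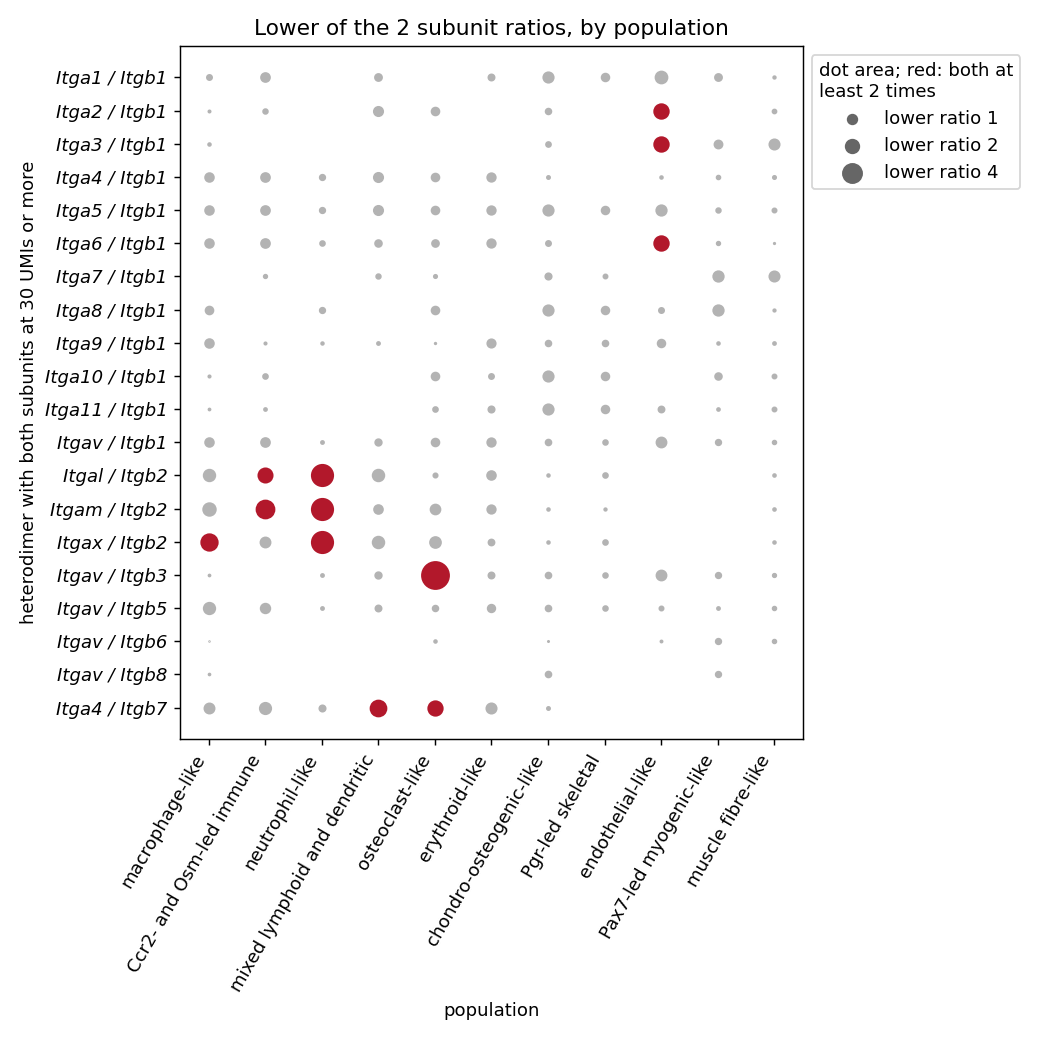
Lower of the 2 subunit ratios of each known αβ pair in each population, as the area of a dot, red where both subunits were called. Itgav with Itgb3 in osteoclast-like nuclei has the highest value, 8.63, followed by Itgal, Itgam and Itgax with Itgb2 in neutrophil-like nuclei at 4.99. The value 4.99 is the ratio of Itgb2, which these pairs share, and does not rank their α subunits.

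The macrophage-like population consisted of 5 clusters, led by Ccl8 (67 nuclei), Dnase1l3 (66), Tnf (60), Ptgr1 (48) and Mmp12 (36), and the receptors differed among them. Since the receptors were left out of clustering, their levels were not used to form the clusters. Itga9 was highest in the Dnase1l3-led cluster at 993 CPM, 3.06 times (2.59 to 3.62) the other macrophage-like nuclei, and lowest in the Ptgr1-led cluster at 171 CPM. Itgb5 had its peak in the same cluster, 615 CPM and 2.06 times (1.69 to 2.5) the others. Itgax was at 130 CPM in the Mmp12-led cluster, which held 27 of the 38 macrophage UMIs, and was 12.3 times (5.92 to 27.6) the others there. The Ccl8-led and Tnf-led clusters held none, which allows up to 10.2 and 12.2 CPM. Cd44 and Itga5 were highest in the Tnf-led cluster, at 971 and 296 CPM, 2.08 (1.77 to 2.43) and 2.06 (1.53 to 2.74) times the others. Itga1 was seen in the Tnf-led (69.0 CPM) and Ptgr1-led (66.7 CPM) clusters and had no UMI in the Ccl8-led and Dnase1l3-led ones. Itga4 fell to 91.7 CPM in the Ptgr1-led cluster, 0.339 times the others, where Itgam was at 392 CPM and Itgb2 at 154 CPM, with intervals that overlapped those of the Tnf-led (Itgam 374 CPM) and Mmp12-led (Itgb2 144 CPM) clusters. Itgav was lower in the Ccl8-led and Ptgr1-led clusters (280 and 371 CPM) than in the other three (601 to 706 CPM).

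**Figure D5:**
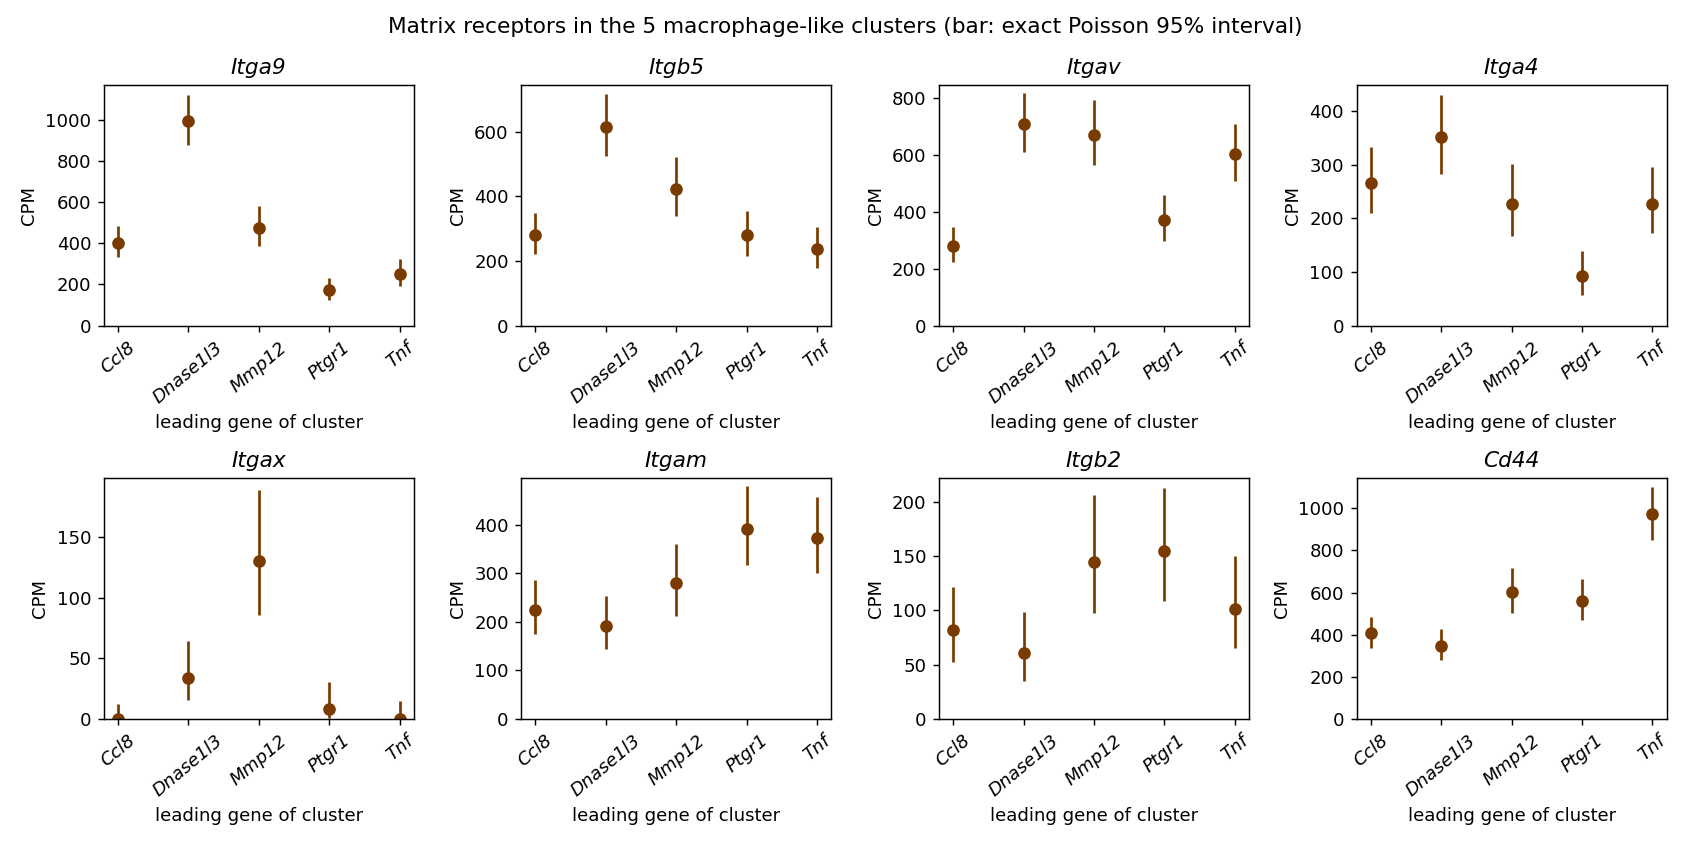
CPM of 8 matrix receptors in the 5 macrophage-like clusters, named by leading gene, with points for the summed level and bars for the exact Poisson 95% interval. Itga9 and Itgb5 peak in the Dnase1l3-led cluster (993 and 615 CPM), Itgax in the Mmp12-led cluster (130 CPM) and Cd44 in the Tnf-led cluster (971 CPM).

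The proteins that act on integrins from inside the cell were followed in a list of 30 activators and adaptors, 29 with enough UMIs. The shares of the list called higher were largest in chondro-osteogenic-like (34.5%, all genes 14.1%), neutrophil-like (31.0%, all genes 13.5%), endothelial-like (31.0%, all genes 11.7%) and macrophage-like nuclei (27.6%, all genes 11.2%). Of the 29 genes, 10 were higher and 9 at 0.5 or less in chondro-osteogenic-like nuclei (22.6% of all genes at 0.5 or less), including Tgfb1i1 (ratio 12.3), α-parvin (Parva, 8.64) and talin 2 (Tln2, 4.76). In neutrophil-like nuclei 9 were higher and 10 lower (all genes 48.2% lower), led by Parvg (6.67) and zyxin (Zyx, 6.64), and in endothelial-like nuclei also 9 and 10 (all genes 32.1% lower), with focal adhesion kinase (Ptk2, 3.86) and Bcar1 (3.08). Macrophage-like nuclei had 8 higher and 9 lower (all genes 27.0% lower), led by Fermt3, the kindlin of blood cells (3.72), and Skap2 (3.34). Osteoclast-like nuclei had 4 higher (13.8%) and 10 lower (34.5%), near the shares over all genes (11.4% and 35.4%), and the kinase Src, which acts downstream of αvβ3 in osteoclasts, was at 610 CPM, a ratio of 25.4 (19.4 to 33.4). The Ccr2- and Osm-led cluster had 3 higher and 13 lower (all genes 9.13% and 37.3%), led by Apbb1ip, the RIAM adaptor that brings talin to integrins (2.97), and the Pax7-led cluster 3 and 11 (all genes 12.7% and 29.2%), with Bcar1 at 6.59 and Tln2 at 4.62. The Pgr-led cluster had 2 and 9 (all genes 11.9% and 30.2%), the mixed lymphoid and dendritic nuclei 2 and 14 (all genes 13.6% and 35.5%) and erythroid-like nuclei 1 and 8 (all genes 12.5% and 28.3%). Muscle fibre-like nuclei had 0 higher and 16 lower of 29 (all genes 10.9% and 37.7%). The kindlin paralogs differed by lineage, since Fermt2 was at 248 CPM in chondro-osteogenic-like and 5.59 CPM in macrophage-like nuclei and Fermt3 at 14.6 and 204 CPM. The median ratio of the list was 1.16 in macrophage-like and 1.08 in chondro-osteogenic-like nuclei, beside 0.889 and 0.910 over all genes.

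The ligands of these receptors were followed in a list of 34 genes, 27 with enough UMIs. Postn, Col1a1, Col1a2, Col2a1 and Col3a1 were markers used to name skeletal clusters, and the counts given here leave them out, so that 22 ligands remain. Endothelial-like nuclei had 10 of them higher and 6 at 0.5 or less (all genes 11.7% and 32.1%), led by the basement membrane collagens Col4a2 (46.6) and Col4a1 (41.9). Chondro-osteogenic-like nuclei had 9 higher and 4 lower (all genes 14.1% and 22.6%), among them the hyaluronan synthase Has2, which makes the ligand of CD44 (268 CPM, ratio 24.3), and tenascin-C (Tnc, 953 CPM, ratio 23.6). The Pgr-led cluster had 7 and 6 (all genes 11.9% and 30.2%), with nidogen (Nid1, 4.02) and Lama4 (4.01). The Pax7-led cluster had 4 and 6 (all genes 12.7% and 29.2%), led by laminin α2 (Lama2, 3786 CPM, ratio 16.3), and muscle fibre-like nuclei 3 and 15 (all genes 10.9% and 37.7%), with nephronectin (Npnt, 81.1 CPM) at 17.3. Macrophage-like nuclei had 2 higher and 16 lower (all genes 11.2% and 27.0%), with osteopontin (Spp1) at 911 CPM and 5.99, and the Ccr2- and Osm-led cluster 4 and 16 (all genes 9.13% and 37.3%), with thrombospondin 1 (Thbs1, 5.97) and fibronectin (Fn1, 4417 CPM, 5.04). Neutrophil-like nuclei had 1 higher and 18 lower (all genes 13.5% and 48.2%), osteoclast-like nuclei 1 and 18 (all genes 11.4% and 35.4%), erythroid-like nuclei 1 and 17 (all genes 12.5% and 28.3%), and the mixed lymphoid and dendritic nuclei 0 and 19 (all genes 13.6% and 35.5%). The median ratio of the 22 ligands was 1.40 in chondro-osteogenic-like and 0.0588 in macrophage-like nuclei, beside 0.910 and 0.889 over all genes.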

How the data were processed

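The authors deposited unnormalized UMI counts, made per the methods and the submitters' processing notes with Cell Ranger 7.0.1 on mouse mm10, intronic and exonic reads included; the labels also name a human reference, but all gene identifiers are of mouse. Nuclei had been sorted as Sytox-AAD+ before loading. From these counts, the day 5 nuclei were held to 200 to 5000 detected genes, less than 5% of UMIs from mitochondrial genes and less than 2% from ribosomal ones. Clusters were built in Seurat 5.3.0 under R 4.3.3 from 30 principal components at resolution 1.0, and again for immune nuclei (20 at 1.5) and skeletal nuclei (15 at 0.5), on 2000 variable genes without the receptors and the adaptor and ligand lists. A cluster was named from at least 3 markers with 3 or more UMIs and a fold of at least 1.5, and otherwise called by leading genes. These thresholds were set after a first look at the clusters. The receptors, lists and rules were chosen with earlier results of these data known. Named receptors are the called ones, named list genes the highest called. Scrublet in scanpy 1.11.5 marked 4 of 1143 nuclei scored before the upper limit on genes, which took out 16, and the 3 marked nuclei among the 1127 retained were kept.

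CPM intervals are exact Poisson, ratio intervals exact conditional binomial and shares exact binomial (scipy 1.17.1), and genes needed 30 UMIs. The intervals were tested on simulated data of 11385 genes with 200 changed, where they covered 96.2% to 97.8% of unchanged genes. Exact intervals reach such coverage by construction where only counting error is present. The coverage therefore does not speak for UMIs gathered in single nuclei or for differences between mice. Of 795 simulated nuclei, 89.2% were given back their class, but 34.1% of the neutrophil ones, and at least 86.4% of each other class. Gene spans come from GENCODE vM21 and promoters from RefSeq, both on GRCm38. Alternatives are given in the closing section, 2 of them added after the data were seen.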

Additional observations from a re-analysis of the deposited data

Results flagged for a closer look

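The day 1 post-fracture library entered no comparison, and it held the same receptors above the limit that a count of 0 allows. Their summed level was 2059 CPM (exact Poisson interval 1978 to 2141; 2475 UMIs) in its 2405 nuclei that passed the filters the study set for its fracture libraries, and 2253 CPM in its 43464 barcodes with under 200 genes. In the retained day 5 post-MTI nuclei the sum was 3066 CPM. Day and injury cannot be told apart between the libraries, so the values stand side by side and no difference is drawn from them.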

How the results depend on the processing

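Counts of called receptors were recomputed under 14 alternatives. With a ratio of at least 3 in place of 2, macrophage-like nuclei had 3 called receptors in place of 8, and the pairs that mark a named class were 4 in place of 9, by construction of the stricter rule. Under every other alternative the counts stayed within 1.5 times their main value, from 6 to 9 in macrophage-like, 6 to 8 in neutrophil-like, 5 to 7 in skeletal lineage-like, 4 to 8 in endothelial-like and 4 to 5 in myogenic-like nuclei. With under 0.5% mitochondrial UMIs, 4 of the 8 macrophage receptors were shared, Itga4, Itga6, Itga9 and Itgb5 were lost and Itgam and Itgb7 gained, and no skeletal lineage-like cluster was named, so that it gave no value. Of 426 recomputed ratios of 36 receptors and populations, 385 stayed in the interval of the main ratio and 414 stayed at 2 or more. The single ratio that reversed was Itgax in macrophage-like nuclei, 3.75 in the main analysis, 0.998 with each nucleus assigned by its own marker score and 1.48 with every nucleus weighted alike. The ratio fell below 2 for Itga4 (1.61), Itga6 (1.67), Itga9 (1.75) and Itgb5 (1.83) with under 0.5% mitochondrial UMIs, for Itgb2 (1.57) with every nucleus weighted alike, and by own score for Itgb5 (1.97) in macrophage-like and Itga1 (1.75) in skeletal lineage-like nuclei, and for Sdc1 in endothelial-like nuclei, from 3 UMIs, in 3 settings. The causes were not tested. Itgb6 in myogenic-like nuclei stayed above 2, at 37.8 by own score and 30.1 with every nucleus weighted alike, against 118. No paired analysis was possible because the day 5 group has 1 library, which also leaves no replicate to leave out. Depth limits the neutrophil-like population most, where a receptor needs 3 UMIs to stand at 41.0 CPM.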

Other observations

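In the 2 unnamed clusters of low depth, led by Clic6 (175 nuclei, median 685 UMIs) and Hspa1a (68 nuclei, median 802 UMIs), the receptors were also detected, and these nuclei stand outside the report's populations. Of the receptors too low to be classed, Itgae had 7, Itgb4 5 and Itgad 4 UMIs in the Clic6-led cluster, levels of 42.7, 30.5 and 24.4 CPM. Itgb6 was at 54.9 CPM there. The Hspa1a-led cluster held 433 CPM of Itgam and 340 CPM of Itgb1.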
